A study of Mus musculus with 29 samples.

Results

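The 10 genes described here encode integrin subunits carried by fibroblasts. They are the collagen-binding alpha chains Itga1 and Itga11, the alpha-4 chain Itga4, the alpha chains Itga5, Itga8 and Itgav that bind RGD-containing matrix proteins, the beta chains Itgb1, Itgb3 and Itgb5, and the beta-like gene Itgbl1. They were chosen by gene symbol from a table of 55357 mouse genes, and all 10 were found in it. In mm39 they lie at chr13:115089632-115238501 (Itga1), chr9:62585108-62691265 (Itga11), chr2:79085770-79163468 (Itga4), chr15:103252713-103275191 (Itga5), chr2:12111443-12306734 (Itga8), chr2:83554741-83637261 (Itgav), chr8:129412135-129459682 (Itgb1), chr11:104498826-104561303 (Itgb3), chr16:33650035-33769709 (Itgb5) and chr14:123897383-124213031 (Itgbl1). RNA was sequenced in primary cardiac fibroblasts from aged mice (ACF) and young mice (YCF), either freshly isolated or after 48 h in culture. The culture substrates were DECIPHER scaffolds, in which decellularised heart matrix is combined with a polyacrylamide hydrogel, so that the age of the matrix and the stiffness of the gel can be set apart. In the substrate names, A and Y stand for matrix from aged and young hearts, and Stiff and Soft for the gel. The 10 groups were ACF+StiffA, YCF+StiffA, ACF+SoftA, YCF+SoftA, ACF+StiffY, YCF+StiffY, ACF+SoftY and YCF+SoftY in culture, and fresh ACF and fresh YCF. YCF+SoftY had 2 libraries and every other group had 3, which makes 29 in all. The sources used here do not give strain, sex or age in weeks or months. The labels call the libraries biological replicates without tying them to animals or cultures, so p-values speak of the spread among these libraries, which may be technical.

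Integrins are transmembrane receptors made of 1 alpha and 1 beta chain, and the pairing sets the ligand. Itgb1 pairs with many alpha chains: with Itga1 and Itga11 it binds collagens, with Itga5 fibronectin, with Itga8 nephronectin and other RGD proteins, and with Itga4 fibronectin and the adhesion molecule VCAM1. Itgav also pairs with Itgb3 and Itgb5 to bind vitronectin and other RGD ligands, and alpha-v receptors can release TGF-beta from its latent complex. In fibroblasts these receptors hold the cell to its matrix and carry force between matrix and actin cytoskeleton. Itgbl1 is a secreted protein with integrin-like EGF repeats, and it has no transmembrane part and no alpha partner assigned here.

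Library totals ran between 1192668 and 3275089 counts, which limits precision for genes with few counts. Levels are given in CPM, counts scaled to the library's total and composition. All 11 fibroblast markers were detected in every cell state, with a summed level of 19812 to 24365 CPM in cultured ACF and 21127 to 30260 CPM in cultured YCF, and of 6645 to 7125 CPM in fresh ACF and 7606 to 8011 CPM in fresh YCF. Much of the difference was Col1a1, which averaged 10471 CPM in cultured and 255 CPM in fresh ACF, and 12399 CPM in cultured and 1321 CPM in fresh YCF. Pdgfra and Dcn averaged lower in culture at both ages, with Pdgfra at 876 CPM in cultured and 1509 CPM in fresh ACF. YCF+SoftA replicate 3 stood apart from the rest, with a median correlation of 0.935 to the other libraries of its group, against 0.951 to 0.982 for the other libraries. Results that change without it are named where they occur.

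**Figure D1:**
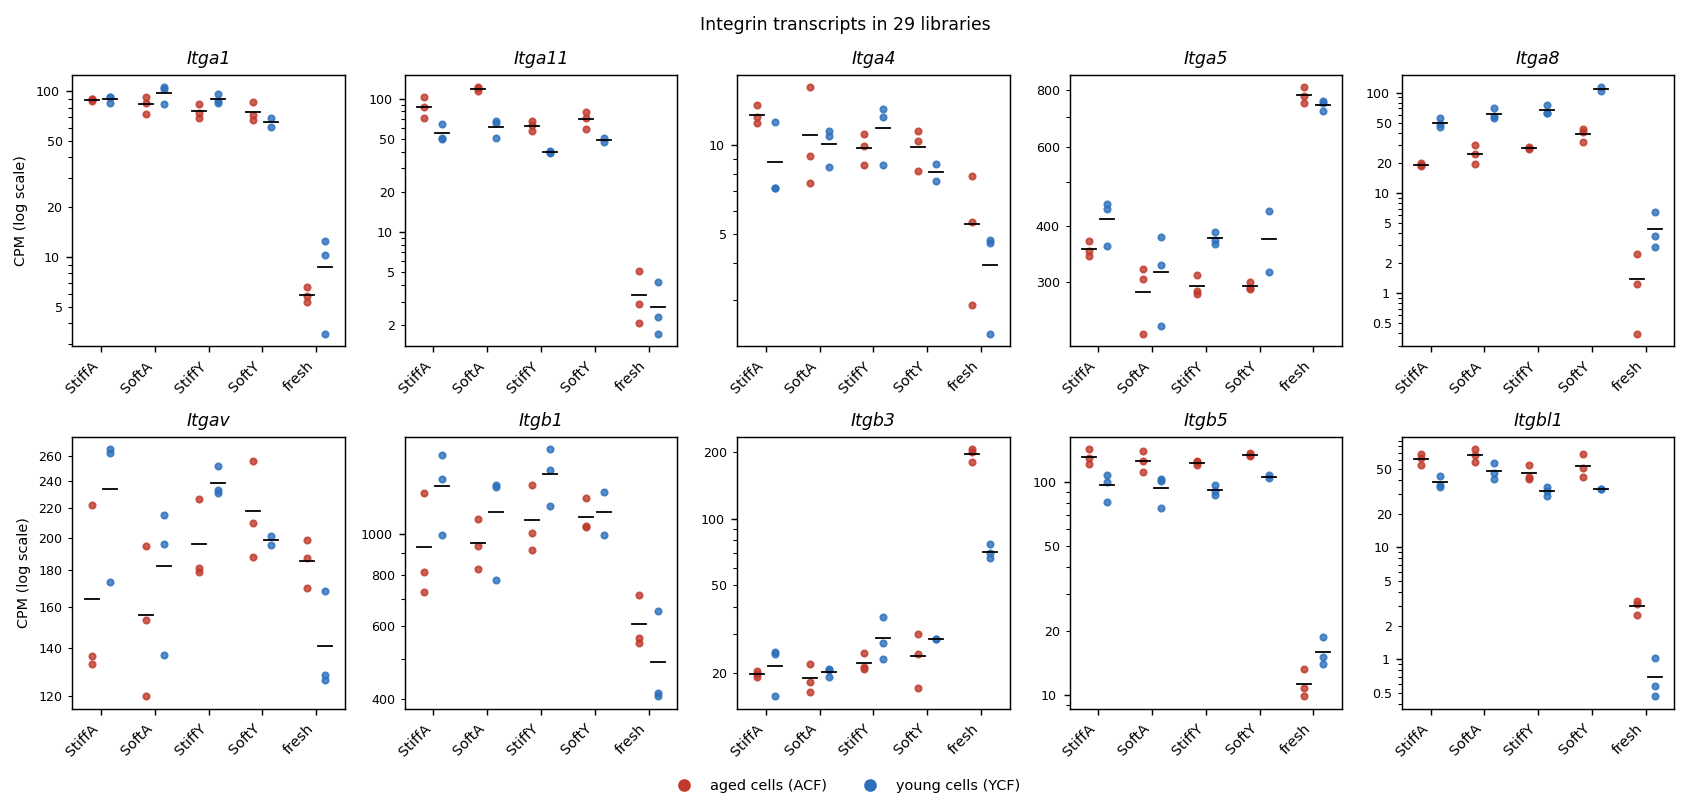
Level of each of the 10 genes in every library, in CPM on a log scale. Groups run from StiffA to SoftY and then fresh cells, with ACF (red) left of YCF (blue), and black bars mark group means. Itga8, Itga11, Itga1, Itgb5 and Itgbl1 are higher in every cultured library than in every fresh one, and Itgb3 and Itga5 are lower.

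The order of the subunits by level per kilobase of exon differed between cultured and fresh cells. In culture Itgb1 came first, at 249 CPM per kb in ACF and 307 in YCF. It was followed by Itga5, at 62.3 in ACF and 75.0 in YCF, and by Itgb5, at 36.2 in ACF and 27.0 in YCF. Itga4 was the lowest, at 0.773 CPM per kb in cultured ACF and 0.697 in cultured YCF. In fresh cells Itga5 and Itgb1, which together form the fibronectin receptor, had the highest levels. Itga5 averaged 158 CPM per kb in fresh ACF and 151 in fresh YCF, and Itgb1 149 in fresh ACF and 120.4 in fresh YCF, and the libraries of the pair overlapped in both ages. Next in fresh ACF came Itgb3 at 33.2 CPM per kb and Itgav at 17.2, whereas in fresh YCF Itgav at 13.1 and Itgb3 at 12.04 overlapped. Itgb5 stood at 3.19 CPM per kb in fresh ACF and 4.49 in fresh YCF, and the remaining 5 genes were below 1.

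The makeup of the alpha and beta chains followed the same order. Of the summed per-length level of the 6 alpha chains, Itga5 took 59.4% in cultured ACF and 62.3% in cultured YCF, against 89.4% in fresh ACF and 90.9% in fresh YCF. Of the 3 beta chains, Itgb5 took 12.8% in cultured ACF and 8.17% in cultured YCF, against 1.72% in fresh ACF and 3.43% in fresh YCF. Itgb3 took 1.26% at both ages in culture, against 18.2% in fresh ACF and 9.04% in fresh YCF. The per-length ratio of Itgb5 to Itgb3, both partners of Itgav, was 10.3 in cultured ACF and 6.80 in cultured YCF, against 0.0972 in fresh ACF and 0.374 in fresh YCF. Other beta chains are outside these shares. Itgb8, a further alpha-v partner, averaged 3.25 to 4.01 CPM per kb in the cultured ACF groups and 0.612 in fresh ACF. The leukocyte chain Itgb2 averaged 0.208 to 0.855 CPM per kb in the cultured ACF groups and 14.1 in fresh ACF. These are shares of RNA, not of receptors at the surface.

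**Figure D2:**
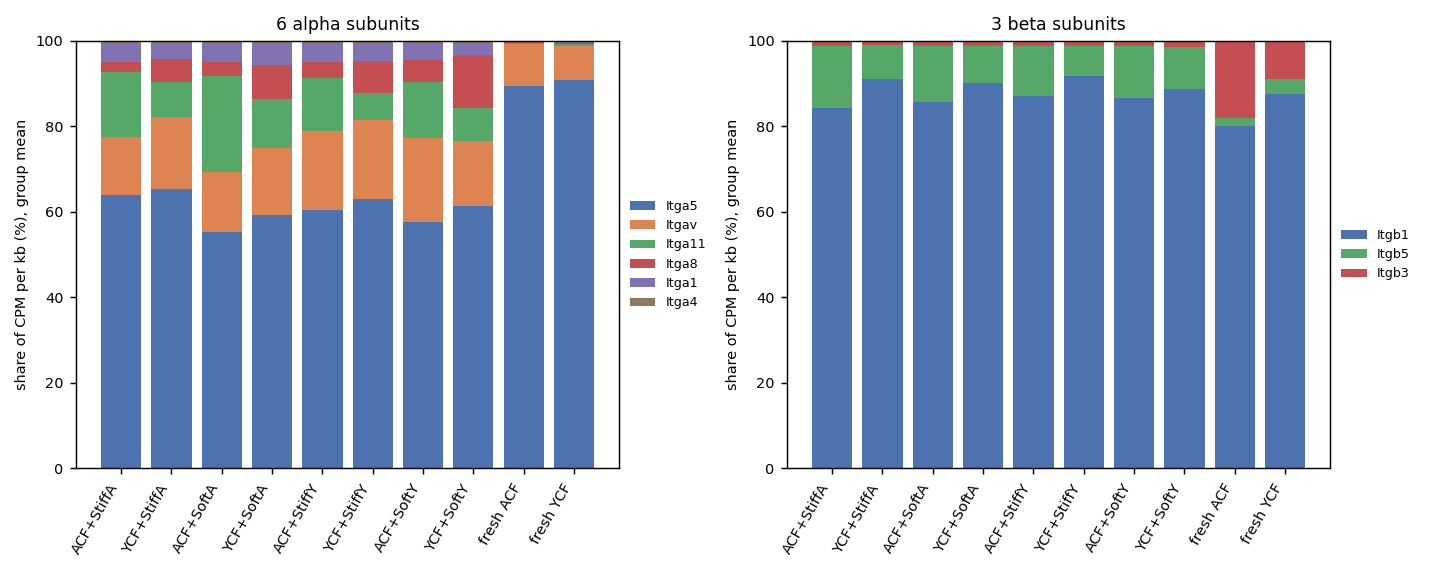
Share of each alpha chain (left, 6 genes) and beta chain (right, 3 genes) in the summed CPM per kb of exon, as the mean of each group. Itga5 takes most of the RNA of these alpha chains in fresh cells and a smaller share on every substrate. Among these 3 beta chains, Itgb5 replaces Itgb3 as the one after Itgb1.

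The sequence before the start of 3 genes is shown because Itga8 and Itga11 had the largest differences by cell age in culture, in opposite directions, and the culture response of Itgb5 differed with cell age. Each is the 250 bases upstream of the RefSeq start in GRCm38.p6, at chr2:12301945-12302194 on the minus strand for Itga8, chr9:62677605-62677854 on the plus strand for Itga11 and chr16:33829415-33829664 on the plus strand for Itgb5. Capitals mark motif matches on either strand.
Itga8: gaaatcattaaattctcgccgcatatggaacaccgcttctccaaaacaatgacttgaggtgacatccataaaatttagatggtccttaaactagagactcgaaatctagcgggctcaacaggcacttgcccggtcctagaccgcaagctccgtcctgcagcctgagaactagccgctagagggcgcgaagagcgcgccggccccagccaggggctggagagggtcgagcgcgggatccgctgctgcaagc
Itga11: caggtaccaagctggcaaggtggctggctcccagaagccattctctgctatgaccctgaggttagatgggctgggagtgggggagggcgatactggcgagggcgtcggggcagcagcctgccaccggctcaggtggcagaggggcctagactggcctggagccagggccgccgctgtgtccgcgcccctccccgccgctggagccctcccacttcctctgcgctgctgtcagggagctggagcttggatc
Itgb5: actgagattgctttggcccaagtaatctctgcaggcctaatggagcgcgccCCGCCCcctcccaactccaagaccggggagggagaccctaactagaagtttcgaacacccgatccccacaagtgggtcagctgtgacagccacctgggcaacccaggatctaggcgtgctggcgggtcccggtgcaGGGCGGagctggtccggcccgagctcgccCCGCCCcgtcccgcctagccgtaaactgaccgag
The motifs searched were TEAD (GGAATG), AP-1 (TGANTCA), SP1 (GGGCGG), SMAD (GTCTG) and the CArG box, which are held by 12.6%, 6.75%, 32.7%, 42.2% and 1.47% of 32851 such windows. The Itgb5 window holds 3 SP1 matches, and none of the 5 motifs is in the Itga8, Itga11 or Itgav windows. Windows of 9 of the 10 genes were matched, and Itgb3 is named only. Itga5 holds 2 SP1 matches, Itgb1 holds 1 TEAD, 1 SP1 and 3 SMAD matches, Itga4 holds 1 SP1 and 1 SMAD match, Itga1 holds 1 SMAD match, and Itgbl1 holds 1 SP1 match.

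The first comparison asked how age changes fibroblasts before culture. Itgb3 was the member that differed most between freshly isolated ACF and YCF. Its level was 207, 200.2 and 180.3 CPM in fresh ACF, against 77.1, 66.4 and 69.7 CPM in fresh YCF. Every ACF library lay far above every YCF library, and the ratio was 2.69-fold (log2 fold change 1.43 ± 0.10 SE, adjusted p = 5.14e-08 in edgeR's quasi-likelihood test with Benjamini-Hochberg adjustment). Itgav, its alpha partner, was measured at 187, 169.9 and 198 CPM in fresh ACF, against 169, 126 and 129 CPM in fresh YCF. The lowest ACF library lay just above the highest YCF library, and Itgav rose 1.28-fold (log2 0.35 ± 0.11, edgeR adjusted p = 0.0261). That call was lost when replicate 1 or 3 of fresh ACF or replicate 2 or 3 of fresh YCF was left out, with adjusted p of 0.0673 or more in each case, and over all alternatives the adjusted p ran between 8.39e-05 and 0.121.

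Itgb3 and Itgav were 2 of the 7 members tested in fresh cells, where 31.8% of all 11786 genes tested were called. The median log2 fold change was 0.27 over the 7 members and -0.02 over all genes. Itgb5 was measured at 9.91, 10.8 and 13.3 CPM in fresh ACF, against 15.1, 14.1 and 18.7 CPM in fresh YCF. The groups did not overlap, but the difference did not pass the test (log2 -0.51 ± 0.24, edgeR adjusted p = 0.122). Itgb1 (log2 0.27 ± 0.15), Itga5 (0.04 ± 0.05), Itga1 (-0.53 ± 0.43) and Itga4 (0.47 ± 0.45) did not pass either, with edgeR adjusted p between 0.208 and 0.602. Without fresh YCF replicate 1, Itgb1 was called (log2 0.53 ± 0.08, edgeR adjusted p = 1.19e-05). That library had 652 CPM, against 415 and 407 CPM in the other fresh YCF libraries. Over all alternatives the Itgb1 adjusted p ran between 1.19e-05 and 0.589. Itga8, Itga11 and Itgbl1 fell below the filter on low counts. Itgbl1 had 6, 8 and 8 counts in fresh ACF, against 3, 2 and 1 counts in fresh YCF, a ratio of scaled counts of 4.24 with an exact 95% interval of 1.67 to 12.8 that covers counting error only. Itga8 had 6, 3 and 1 counts in fresh ACF, against 19, 10 and 8 in fresh YCF, a ratio of 0.312 (0.139 to 0.641, counting error only). Itga11 had summed counts of 25 in fresh ACF and 22 in fresh YCF, and the interval of its ratio held 1 (0.711 to 2.44).

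Markers of other cell types moved with age in the same fresh libraries. Integrin alpha-IIb (Itga2b), the platelet partner of Itgb3, averaged 2.32 CPM in fresh ACF and 1.67 CPM in fresh YCF. Its libraries overlapped between the ages, and its summed counts were only 17 and 14. The 7 platelet and megakaryocyte markers summed to 199 to 208 CPM in fresh ACF, against 106 to 111 CPM in fresh YCF, nearly all of it Pf4. Gp1bb, Gp6 and Treml1 were at 0 in both and Gp9 was at 0 in fresh ACF. Ppbp lay the other way, at a mean of 5.13 CPM in fresh ACF and 6.28 CPM in fresh YCF. The 12 macrophage and myeloid markers, none at 0, summed to 371 to 422 CPM in fresh ACF, against 205 to 209 CPM in fresh YCF. Cd14 averaged 128 CPM in fresh ACF and 34.4 CPM in fresh YCF, and Cd68 106 and 49.9 CPM. Adgre1 (38.8 and 47.9 CPM) and Cd163 (0.544 and 1.69 CPM) lay the other way. The 11 endothelial markers, none at 0, summed to 228 to 234 CPM in fresh ACF, against 168 to 195 CPM in fresh YCF. Among them Cdh5 averaged 60.7 CPM in fresh ACF and 30.7 CPM in fresh YCF, while Tek, Tie1 and Vwf averaged lower in fresh ACF. The part of these cell types in the Itgb3 and Itgav results was not tested. In bulk RNA, fewer cells of a type and less RNA per cell cannot be told apart.

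Other integrin genes also differed in fresh cells. Of 18 other integrin subunits, 7 were tested, 3 rose and 2 fell. Itga2, a collagen-binding alpha chain, rose (log2 2.54 ± 0.24, edgeR adjusted p = 2.2e-06), as did Itga6 (0.73), a laminin receptor chain, and Itgb2 (0.43), the leukocyte beta chain. The laminin-binding Itga7 (-0.95) and Itgb8 (-1.27), an alpha-v partner, fell. Among 24 tested genes of 26 integrin activators and adaptors, 10 rose and 5 fell, with Lims2 (2.62), Tns3 (0.79) and Flna (0.29) higher in ACF and Kank2 (-0.51) lower. Of 24 tested ligand genes, 7 rose and 12 fell: Col1a1 (-2.41) and Col1a2 (-2.22), the chains of type I collagen, were lower in ACF, while Ccn1 (1.33), a matricellular ligand, and Vcam1 (1.27), an alpha-4 ligand, were higher. In the latent TGF-beta list, 1 gene rose and 5 fell, and of 10 tested integrin inhibitors and trafficking genes 3 rose and 2 fell.

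The second comparison set cultured cells against fresh cells of the same age, with the 4 substrates weighted equally. The collagen-binding chains Itga1 and Itga11 rose many-fold at both ages, as did Itga8, Itgb5 and Itgbl1. Itga4 and Itgb1 rose less, and Itga5 and Itgb3 fell. In ACF 9 of 10 members were called, 7 higher and 2 lower, where 62.4% of all 13523 genes tested were called. In YCF all 10 members were called, 8 higher and 2 lower, against 56.9% of all genes. The median log2 fold change was 2.23 over the members and -0.01 over all genes in ACF, and 1.97 over the members and -0.03 over all genes in YCF. Fresh and cultured libraries carry different library letters in the labels, so culture and library series cannot be told apart.

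Among the collagen receptors, Itga1 was measured at 67.8 to 92.7 CPM in cultured ACF (median 84.7), against 5.37, 6.63 and 5.88 CPM in fresh ACF. In cultured YCF it was 61.4 to 107 CPM (median 87.4), against 10.3, 3.45 and 12.6 CPM in fresh YCF. No cultured library came near a fresh one, and Itga1 rose by log2 3.76 ± 0.20 in ACF (edgeR adjusted p = 2.34e-16) and 3.34 ± 0.19 in YCF (9.36e-16). Itga11, the receptor chain for fibrillar collagen typical of activated fibroblasts, was measured at 57.1 to 122 CPM in cultured ACF (median 75.7), against 2.89, 2.07 and 5.09 CPM in fresh ACF. Cultured YCF had 38.9 to 68.2 CPM (median 50.3), against 1.71, 2.30 and 4.21 CPM in fresh YCF. It rose by log2 4.58 ± 0.21 in ACF (edgeR adjusted p = 5.28e-18) and 4.25 ± 0.22 in YCF (2.23e-16), again with no overlap.

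Itga8 was measured at 18.6 to 43.1 CPM in cultured ACF (median 27.8), against 2.48, 1.24 and 0.392 CPM in fresh ACF. The range in cultured YCF was 46.0 to 115 CPM (median 62.7), against 6.51, 2.87 and 3.74 CPM in fresh YCF. From summed counts, cultured over fresh was 20.1-fold in ACF (exact 95% interval 10.9 to 42.1, counting error only) and 16.1-fold in YCF (11.6 to 22.97). Itgbl1 was measured at 40.9 to 75.5 CPM in cultured ACF (median 56.3), against 2.48, 3.32 and 3.13 CPM in fresh ACF. In cultured YCF it was 28.98 to 56.8 CPM (median 34.8), against 1.03, 0.575 and 0.468 CPM in fresh YCF. Its count ratio was 19.3-fold in ACF (12.7 to 30.9) and 53.1-fold in YCF (24.3 to 145), the second resting on 6 counts in fresh YCF. Both genes were called at both ages by edgeR (adjusted p between 4.72e-14 and 7.28e-17). Itga4 was low throughout, at 7.48 to 15.8 CPM in cultured ACF and 2.89 to 7.87 CPM in fresh ACF, ranges that overlapped. It rose by log2 0.96 ± 0.27 in ACF (edgeR adjusted p = 0.00307) and 1.31 ± 0.29 in YCF (0.000311). Without fresh ACF replicate 1 the ACF change was 0.66, with an adjusted p of 0.0553 (0.00122 to 0.0553 over all alternatives). Its span overlaps the neighbouring gene Cerkl, which had 607 counts over all libraries against 584 for Itga4, and whether the counting used strand is not stated, so reads of the pair may be mixed.

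Of the fibronectin receptor, Itga5 fell and Itgb1 rose. Itga5 was measured at 231 to 371 CPM in cultured ACF (median 303), against 815, 778 and 752 CPM in fresh ACF. Cultured YCF had 240.0 to 449 CPM (median 373), against 719, 757 and 752 CPM in fresh YCF. All cultured libraries were lower than all fresh ones, and Itga5 fell by log2 1.35 ± 0.09 in ACF (edgeR adjusted p = 2.54e-14) and fell by 1.01 ± 0.09 in YCF (6.4e-11). Itgb1, the common beta chain, was measured at 727 to 1313 CPM in cultured ACF (median 1025), against 561, 546 and 714 CPM in fresh ACF. The range in cultured YCF was 778 to 1607 CPM (median 1302), against 652, 415 and 407 CPM in fresh YCF. It rose by log2 0.74 ± 0.17 in ACF (edgeR adjusted p = 0.000407) and 1.33 ± 0.18 in YCF (1.89e-07).

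Of the alpha-v partners, Itgb3 and Itgb5 moved in opposite directions, and Itgb8, which is outside the 10 genes, rose as given below. Itgb3 was measured at 16.5 to 30.0 CPM in cultured ACF (median 20.7), against 207, 200.2 and 180.3 CPM in fresh ACF. In cultured YCF it was 15.7 to 35.9 CPM (median 24.3), against 77.1, 66.4 and 69.7 CPM in fresh YCF. The cultured ranges of the ages overlapped, while the fresh ones did not. Itgb3 fell by log2 3.22 ± 0.11 in ACF (edgeR adjusted p = 9.18e-22) and fell by 1.52 ± 0.12 in YCF (3.05e-12). Itgb5 was measured at 111 to 143 CPM in cultured ACF (median 128), against 9.91, 10.8 and 13.3 CPM in fresh ACF. Cultured YCF had 75.1 to 108 CPM (median 100.2), against 15.1, 14.1 and 18.7 CPM in fresh YCF. It rose by log2 3.49 ± 0.14 in ACF (edgeR adjusted p = 7.23e-20) and 2.62 ± 0.13 in YCF (3.31e-17). Itgav itself was measured at 120.1 to 256 CPM in cultured ACF and 170 to 198 CPM in fresh ACF, with no call (log2 -0.03 ± 0.15, adjusted p = 0.878). In YCF it rose by 0.59 ± 0.15 (edgeR adjusted p = 0.00174). The summed platelet and megakaryocyte markers, highest in the same fresh libraries as Itgb3, were 13.6 to 26.8 CPM in cultured ACF, against 199 to 208 CPM in fresh ACF. In YCF they were 14.1 to 29.6 CPM in culture, against 106 to 111 CPM in fresh cells. Most of the fresh sums was Pf4, which averaged 14.2 CPM in cultured ACF and 195 CPM in fresh ACF. Itga2b, the platelet partner of Itgb3, lay the other way. It averaged 4.99 CPM in cultured and 2.32 CPM in fresh ACF, and 3.06 CPM in cultured and 1.67 CPM in fresh YCF. The part of platelets and megakaryocytes in the Itgb3 result was not tested.

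**Figure D3:**
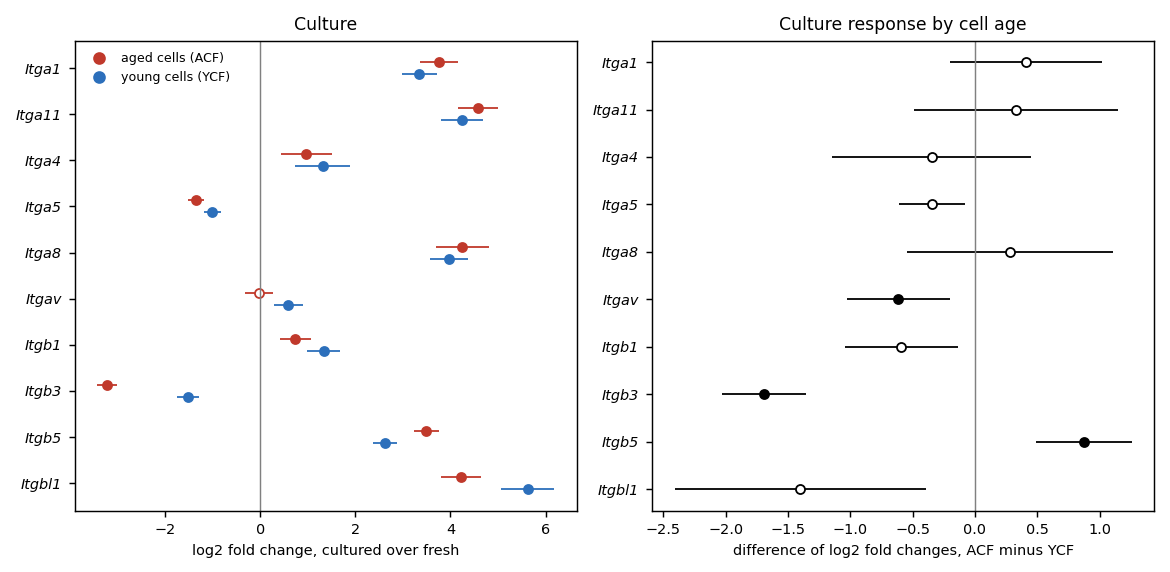
Left, log2 fold change of cultured over fresh cells for each gene in ACF and YCF, and right, the ACF change minus the YCF change. Bars are approximate 95% intervals from the standard error and filled points have an adjusted p under 0.05. Itgb3 lies at -3.22 in ACF and -1.52 in YCF, and Itgb3, Itgb5 and Itgav are filled in the right panel.

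The difference between the culture responses of the ages was tested as an interaction. It was called for 3 of 10 members, where 20.6% of all genes were called. An unadjusted p under 0.05 was found for 6 members and 31.4% of all genes. Without YCF+SoftY replicate 2 or YCF+SoftA replicate 3, 5 members were called. Itgb3 fell further in ACF, by 1.69 ± 0.17 more on the log2 scale (edgeR adjusted p = 6.57e-09). Itgb5 rose further in ACF, by 0.87 ± 0.19 (adjusted p = 0.00128). The Itgav response was 0.62 ± 0.21 lower in ACF (adjusted p = 0.0358), a call lost without replicate 1 or 3 of fresh ACF or replicate 2 or 3 of fresh YCF (adjusted p between 0.0738 and 0.123). Over all alternatives its adjusted p ran between 6.94e-05 and 0.142. Itgb1 (-0.59 ± 0.23), Itga5 (-0.35 ± 0.14) and Itgbl1 (-1.40 ± 0.51) were not called, with edgeR adjusted p between 0.0682 and 0.0693. Itgb1 was called when any 1 of 6 libraries was left out (fresh YCF replicate 1, YCF+SoftY replicate 2, and replicate 3 of ACF+StiffY, YCF+SoftA, YCF+StiffA or ACF+StiffA), and Itga5 without YCF+SoftY replicate 2 or YCF+SoftA replicate 3. Over all alternatives the adjusted p ran between 2.52e-08 and 0.235 for Itgb1, between 0.00755 and 0.433 for Itga5 and between 0.0575 and 0.230 for Itgbl1. This difference shares its fresh libraries with the comparison of fresh cells, so the Itgb3 and Itgav values are not independent of those given there.

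Other genes of the pathway changed widely in culture, as did most genes. Of 9 other integrin subunits tested, 2 rose and 3 fell in ACF and 1 rose and 4 fell in YCF. Itgb2 had a log2 fold change of -4.746 in ACF and -2.99 in YCF, Itga6 fell by 1.88 in ACF and fell by 1.54 in YCF, and Itgb8 rose by 2.51 in ACF and 1.34 in YCF. Of the activators and adaptors, 12 rose and 6 fell in ACF and 17 rose and 2 fell in YCF. Vcl, which encodes the force-bearing linker vinculin, rose by log2 2.43 in ACF and 2.95 in YCF, and the adaptor Tns1 by 3.98 in ACF and 3.08 in YCF, while the blood cell kindlin Fermt3 fell by 5.53 in ACF. Of 25 ligands tested, 17 rose and 6 fell in ACF and 19 rose and 4 fell in YCF. In ACF the rises were led by Col1a1 (log2 5.35), Fn1 (4.57), which encodes fibronectin, Col1a2 (3.93) and Col3a1 (3.53). Of the latent TGF-beta genes, 4 rose and 4 fell in ACF, among them Tgfb2 (3.60), Tgfb3 (3.58) and Ltbp3 (2.64) upward and Lrrc32 (-1.18) downward, and 5 rose and 4 fell in YCF. Of the inhibitors and trafficking genes, 5 rose and 3 fell at each age.

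The third comparison set cultured ACF against cultured YCF over the 4 substrates. Itga8 was lower in ACF, Itga11, Itgbl1 and Itgb5 were higher, and Itga5 was slightly lower. These were 5 of 10 members, where 15% of all 12841 genes tested were called. With an unadjusted p under 0.05 there were 8 members and 28% of all genes. The median log2 fold change was -0.15 over the members and -0.00 over all genes. Cell type markers moved with age in the same libraries. Of 9 endothelial markers tested of 11 listed, 8 were higher in cultured ACF (median log2 1.12). The sum of the 11 was 110 to 210 CPM in cultured ACF and 77.8 to 140 CPM in cultured YCF. Tek, the most abundant, lay the other way, at a mean of 51.1 CPM in cultured ACF and 59.8 CPM in cultured YCF. None of the 11 was at 0 in any cultured group except 1 in YCF+StiffY. Of 11 fibroblast markers, 8 were lower in cultured ACF (median log2 -0.26). The part of these cells in the age results was not tested.

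Itga8 was measured at 19.1, 18.6 and 19.8 CPM in ACF+StiffA, against 46.0, 55.8 and 48.9 CPM in YCF+StiffA. On SoftA it was 24.5, 30.3 and 19.4 CPM in ACF, against 69.9, 56.5 and 59.0 CPM in YCF. On StiffY it was 28.9, 27.9 and 27.6 CPM in ACF, against 62.7, 63.2 and 75.4 CPM in YCF. Every ACF library was lower than every YCF library, across all substrates. On SoftY, where both ages were highest, it was 32.2, 43.1 and 40.5 CPM in ACF, against 105 and 115 CPM in YCF. The ratio of ACF to YCF means was 0.351 to 0.420 on the 4 substrates, and over all of them Itga8 fell by log2 1.37 ± 0.08 (0.387-fold, edgeR adjusted p = 1.35e-12). Counts in fresh cells were also lower in ACF, as given above, though too few for the test.

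Itga11 had the opposite order by age. On StiffA it was 86.0, 103 and 71.7 CPM in ACF, against 49.3, 64.9 and 50.6 CPM in YCF. On SoftA it was 114, 120 and 122 CPM in ACF, against 66.1, 50.3 and 68.2 CPM in YCF. On StiffY it was 63.2, 67.7 and 57.1 CPM in ACF, against 39.4, 40.2 and 38.9 CPM in YCF. ACF libraries were higher on each substrate with no overlap. On SoftY it was 79.8, 58.9 and 71.5 CPM in ACF, against 47.3 and 50.6 CPM in YCF. The ratio of means was 1.43 to 1.93 on the 4 substrates, and Itga11 rose by log2 0.70 ± 0.08 (1.62-fold, edgeR adjusted p = 2.92e-07). The per-length ratio of Itga11 to Itga8 had a median of 4.38 over cultured ACF libraries (highest 9.03), against 1.28 over cultured YCF libraries (highest 1.67).

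**Figure D4:**
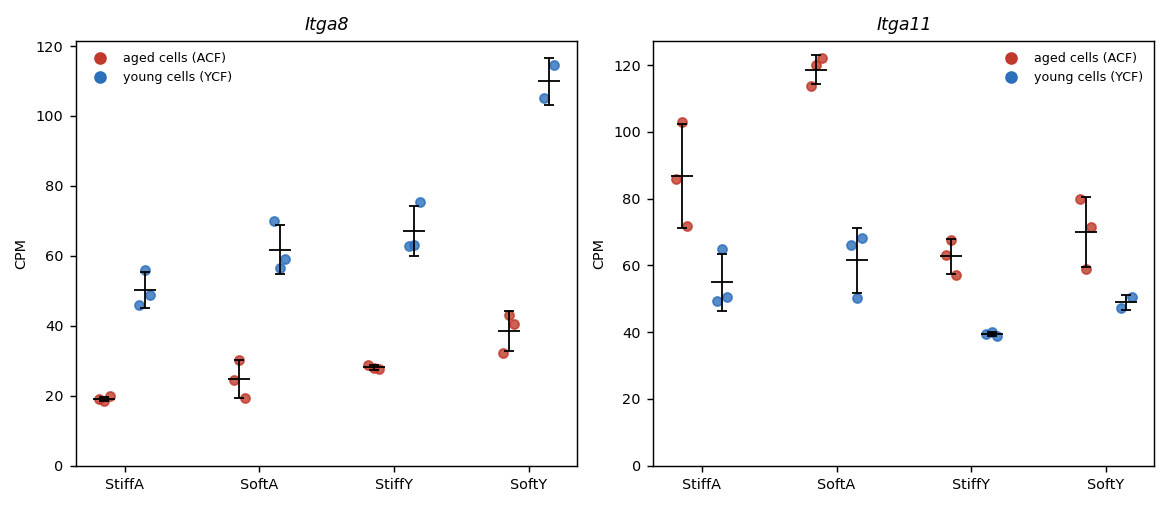
Itga8 and Itga11 in each cultured library, in CPM, by substrate, with ACF left of YCF and bars for the group mean and SD. Itga8 lies between 18.6 and 43.1 CPM in ACF and 46.0 and 115 CPM in YCF, and Itga11 is higher in ACF on every substrate.

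Itgb5 was also higher in every cultured ACF library than in every cultured YCF library, at 111 to 143 CPM in ACF and 75.1 to 108 CPM in YCF. It rose by log2 0.40 ± 0.06 (1.32-fold, edgeR adjusted p = 4.83e-05), with ratios of 1.27 to 1.36 on the 4 substrates. In fresh cells its values lay the other way, as given above. Itgbl1 rose by 0.59 ± 0.09 (1.51-fold, adjusted p = 3.63e-05), with no overlap on any substrate and ratios of 1.39 to 1.62. Itga5 was 231 to 371 CPM in ACF and 240.0 to 449 CPM in YCF, ranges that overlapped widely over the pooled substrates. Within substrates, ACF was lower with no overlap on SoftY (ratio 0.786) and StiffY (0.783), and the ages overlapped on SoftA (0.904) and StiffA (0.855). Itga5 fell by log2 0.28 ± 0.07 (0.824-fold, edgeR adjusted p = 0.00749). Without YCF+SoftY replicate 1 its change was -0.21 and the adjusted p 0.0558 (3.98e-05 to 0.0558 over all alternatives).

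The other 5 members did not pass. Itgb1 had a log2 fold change of -0.30 ± 0.10 and an edgeR adjusted p of 0.0503. It sat at the threshold: leaving out any 1 of 8 libraries brought it below, among them YCF+SoftA replicate 3 (adjusted p = 0.00737), the library that stood apart, and over all alternatives the adjusted p ran between 1.26e-08 and 0.159. Itgav (-0.23 ± 0.10) and Itgb3 (-0.24 ± 0.11) had adjusted p of 0.123 and 0.154 in edgeR, and Itga1 (-0.06 ± 0.06) and Itga4 (0.15 ± 0.15) 0.550 and 0.563. Itgav was called without YCF+SoftA replicate 3 (-0.26, edgeR adjusted p = 0.0470) or without ACF+StiffA replicate 3 (-0.29, 0.0282). Its adjusted p ran between 0.00546 and 0.244 over all alternatives. Itgb1 and Itgav varied together within groups, by up to 1.73-fold and 1.67-fold, and in 7 of 10 groups the same library was lowest in both.

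Of the wider pathway in cultured cells by age, 2 of 9 other integrin subunits fell in ACF, Itgb2 (log2 -1.29) and Itga3 (-0.59), a laminin receptor chain. Of 22 activators and adaptors tested, 1 rose and 9 fell, among them Vcl (-0.45), the FAK and Src scaffold Bcar1 (-0.36), Kank1 (-0.34) and Zyx (-0.20), which encodes zyxin. Of the ligands, 5 rose and 9 fell, with Tnc (0.70), tenascin-C, higher and Eln (-2.19), elastin, Ccn1 (-0.96) and Col3a1 (-0.53) lower in ACF. Of 8 latent TGF-beta genes tested, 1 rose and 1 fell, and of the inhibitors and trafficking genes Tspan4 fell (-0.21).

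The next comparisons asked what the age of the matrix changes, averaged over both stiffnesses. Each substrate carries its own library letter in the labels, so matrix age and stiffness cannot be told apart from library series. Itga8 was lower on aged matrix at both cell ages, and Itga11 was higher on aged matrix in ACF. In ACF these were 2 of 10 members, where 7.44% of all genes were called, and in YCF Itga8 alone was called, where 2.5% of all genes were called. Each comparison had 5 members with an unadjusted p under 0.05, as had 22.1% of all genes in ACF and 13.1% in YCF. Without YCF+SoftA replicate 2, the count of members called in YCF was 3.

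By the values given above, Itga8 was lower on aged than on young matrix within each cell age and stiffness with no overlap, at 0.563 to 0.749 of the young-matrix mean. It fell by log2 0.59 ± 0.12 in ACF (edgeR adjusted p = 0.0023) and fell by 0.62 ± 0.11 in YCF (0.000836). Itga11 averaged 119 CPM in ACF+SoftA and 70.1 CPM in ACF+SoftY, and 86.9 CPM in ACF+StiffA and 62.7 CPM in ACF+StiffY, with no overlap in either pair. It rose by 0.63 ± 0.10 in ACF (edgeR adjusted p = 0.00021). In YCF its change was 0.39 ± 0.12 (adjusted p = 0.0858), with groups that overlapped on soft gels and not on stiff gels. Itgbl1 had a log2 fold change of 0.38 ± 0.12 in ACF (adjusted p = 0.0514) and 0.38 in YCF (0.177), and Itga1 one of 0.30 ± 0.09 in YCF (0.0918), none of them called by edgeR. Itgav (-0.36 ± 0.14, adjusted p = 0.111) and Itgb1 (-0.21 ± 0.14, adjusted p = 0.414) were not called in ACF either. Of 9 endothelial markers tested, 5 were higher on aged matrix in ACF (median log2 0.88) and none was called in YCF. Their sum was 189 to 210 CPM in ACF+SoftA, where Itga11 was also highest, against 110 to 130 CPM in ACF+SoftY, and 148 to 199 CPM in ACF+StiffA, against 126 to 148 CPM in ACF+StiffY, and its part in the Itga8 and Itga11 results was not tested. Of 11 fibroblast markers, 3 were higher and 4 lower on aged matrix in ACF, and 2 were lower in YCF.

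The difference of the matrix response between ACF and YCF was called for 0 members in edgeR and 0 in DESeq2, where 0.0935% of all genes were called. With an unadjusted p under 0.05 there were 0 members and 7.41% of all genes. For Itga8 that difference was 0.04 ± 0.16 on the log2 scale, with an interval of -0.28 to 0.36. For Itga11 it was 0.24 ± 0.16 (adjusted p = 0.750), so its call in ACF and not in YCF is not a tested difference between the ages.

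Itga8 differed between stiff and soft gels in YCF, where gel and library series cannot be told apart. Averaged over both matrices, Itga8 fell by log2 0.51 ± 0.11 on stiff gels in YCF (edgeR adjusted p = 0.00425). It was the 1 member called, where 3.57% of all genes were called. An unadjusted p under 0.05 was found for 2 members and 15.1% of all genes. In ACF the Itga8 change was -0.41 ± 0.12, with an unadjusted p of 0.00204 and an adjusted p of 0.291. No member was called there by edgeR or DESeq2, where 0.296% of all genes were called. In that comparison 2 members had an unadjusted p under 0.05, as had 5.52% of all genes. The difference of the Itga8 stiffness response between ACF and YCF was 0.10 ± 0.16, with an interval of -0.21 to 0.41. Of 10 members 0 were called for that difference in edgeR and in DESeq2, where 0.787% of all genes were called. With an unadjusted p under 0.05 there were 0 members and 7.97% of all genes.

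Taking the gels one matrix at a time, Itga8 in YCF fell by 0.72 ± 0.15 on StiffY against SoftY (edgeR adjusted p = 0.00421). It was the 1 member called of 2 with an unadjusted p under 0.05, where 4.56% of all genes were called and 16.9% had such a p. Without YCF+SoftY replicate 2 its change was -0.66 and the adjusted p 0.0577 (0.0026 to 0.0577 over all alternatives). Itga1 in the same comparison had a log2 fold change of 0.46 (adjusted p = 0.053). In ACF on young matrix 0 members were called by edgeR and by DESeq2, where 0.0545% of all genes were called. There 1 member had an unadjusted p under 0.05, as had 3.67% of all genes. On aged matrix 0 members were called in ACF, where 0.366% of all genes were called, and 0 in YCF, where 0.21% were called. DESeq2 called 0 in each. An unadjusted p under 0.05 was found for 3 members and 7.61% of all genes in ACF, and for 1 member and 8.17% in YCF. Itga8 in YCF averaged 50.2 CPM on StiffA and 61.8 CPM on SoftA. These groups did not overlap, but the difference was not called, with an adjusted p between 0.384 and 0.970 over all alternatives.

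The interaction of stiffness and matrix was called for 0 members in ACF, with 0 at an unadjusted p under 0.05 and 0.0234% of all genes called. In YCF it was called for 0 members, with 1 at an unadjusted p under 0.05 and 0.615% of all genes called, and DESeq2 called 0 at both ages. That 1 member was Itga1, at -0.58 ± 0.18 (edgeR adjusted p = 0.161). Of all genes, 5.49% in ACF and 11.5% in YCF had an unadjusted p under 0.05 for the interaction.

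With both changed at once, StiffA against SoftY, Itga8 fell by 0.99 ± 0.16 in ACF (edgeR adjusted p = 0.000416) and fell by 1.13 ± 0.15 in YCF (1.73e-05). It was the 1 member called in ACF, where 4.21% of all genes were called, and 2 were called without ACF+StiffA replicate 3. With an unadjusted p under 0.05 there were 5 members and 16.6% of all genes in ACF. In YCF 2 members were called, where 5.26% of all genes were called. The second was Itga1, with a log2 fold change of 0.47 ± 0.14 (edgeR adjusted p = 0.0415), a call lost without any 1 of the 5 libraries compared, with an adjusted p between 0.026 and 0.340 over all alternatives, and absent in DESeq2. Over all 10 groups Itga8 was highest in YCF+SoftY (mean 110 CPM) and lowest among cultured groups in ACF+StiffA (19.2 CPM). YCF+StiffY (67.1 CPM) and YCF+SoftA (61.8 CPM) overlapped. ACF+SoftA (24.7 CPM) overlapped both ACF+StiffY (28.2 CPM) and ACF+StiffA, which did not overlap each other.

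**Figure D5:**
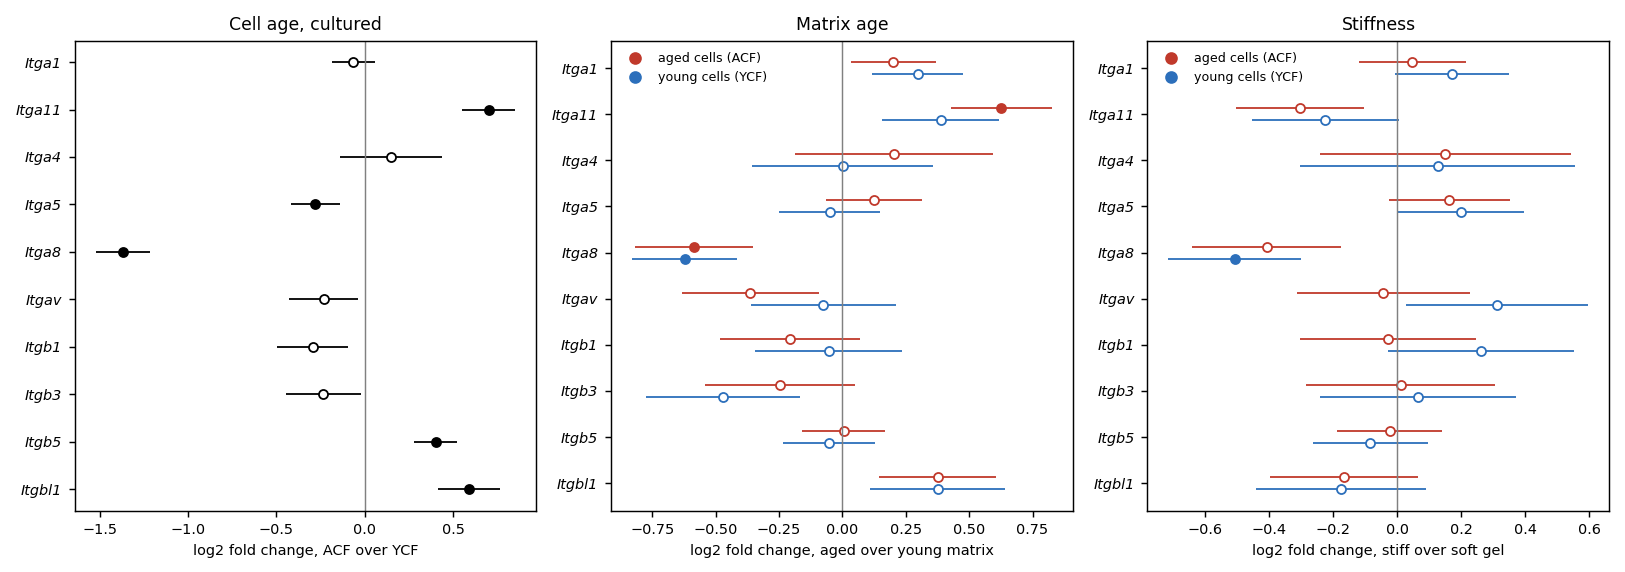
Log2 fold changes in cultured cells for cell age (left), matrix age (middle) and stiffness (right), with bars for approximate 95% intervals and filled points for adjusted p under 0.05. Itga8 lies below 0 in all 3 panels, and Itga11 lies above 0 for cell age and for matrix age.

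Itga8 is also known from pericytes and smooth muscle, so the 11 markers of those cells are given beside it. They summed to 602 to 637 CPM in ACF+StiffA, 627 to 753 CPM in ACF+SoftA, 572 to 692 CPM in ACF+StiffY and 597 to 646 CPM in ACF+SoftY. In YCF the sums were 530 to 589 CPM on StiffA, 594 to 672 CPM on SoftA, 449 to 524 CPM on StiffY and 747 to 858 CPM on SoftY. Most of the sum was Pdgfrb, which fibroblasts also express, at a mean of 467 CPM in cultured ACF and 398 CPM in cultured YCF, and Steap4, at 64.1 CPM in cultured ACF and 106 CPM in cultured YCF. Ndufa4l2 averaged 43.97 CPM in cultured ACF and 31.5 CPM in cultured YCF, Cnn1 19.4 and 16.8 CPM, and Mcam 7.08 and 4.84 CPM. Notch3 averaged 35.8 CPM in cultured ACF and 38.7 CPM in cultured YCF. Its fresh means were lower, as for Itga8, at 0.406 CPM in ACF and 5.88 CPM in YCF. Rgs5, Abcc9, Kcnj8, Cspg4 and Myh11 averaged 0.409 to 2.31 CPM in cultured ACF and 0.437 to 2.21 CPM in cultured YCF. Among these, Rgs5 and Kcnj8 averaged lower in cultured than in fresh cells at both ages. None of the 11 was at 0 in any cultured group except 1 in ACF+SoftY. Within YCF the sum was highest on SoftY, as Itga8 was. Between the ages the ACF sums were higher than the YCF sums on both stiff substrates and lower on SoftY, while Itga8 was lower in ACF on all 4. In fresh cells the sum was 203 to 235 CPM in ACF, against 394 to 448 CPM in YCF, with Cnn1 at 0 in YCF. The part of these cells in the Itga8 result was not tested.

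Among other genes of the pathway, no other integrin subunit of 9 tested was called for matrix or stiffness. Of the activators and adaptors, 6 rose and 1 fell on aged matrix in ACF, with Actn1 (0.38), Tln2 (0.36) and Zyx (0.25) higher and Kank1 (-0.44) lower, and 3 rose in YCF. On stiff gels 5 rose in YCF, among them Tln2 (0.40), a talin, Zyx (0.33), Actn4 (0.27) and Flna (0.27), and none was called in ACF. Of the ligands, 10 rose and 2 fell on aged matrix in ACF and 3 rose and 1 fell in YCF. On stiff gels 2 ligands rose and 5 fell in YCF, and none was called in ACF. Of the latent TGF-beta genes, 2 rose and 1 fell on aged matrix in ACF and 1 rose in YCF, and of the inhibitors and trafficking genes the tetraspanin Cd9 rose on aged matrix in ACF (0.35).

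By Pearson correlation of group mean log2 CPM over the 10 groups, the gene most like Itga8 was Cdh11 (0.987), like Itga11 Oat (0.993), like Itga1 Scel (0.998), like Itgb5 Bgn (0.998), like Itgbl1 Selenom (0.996) and like Itgb3 Wdr5 (0.996), followed by Mmp13 (0.993) and Nqo1 (0.992). For Itga5 it was Gdpd1 (0.983), for Itgb1 Stbd1 (0.984) and for Itga4 Ganc (0.980). No gene reached more than 0.934 with Itgav. The 10 points share libraries within a group and most of the spread lies between fresh and cultured cells.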

How the data were processed

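RNA from 29 libraries of mouse cardiac fibroblasts was prepared with the NEBNext Single Cell/Low Input kit from 20 ng of RNA, per the labels' protocols. The authors deposited 1 table of raw counts per gene, not normalized. The submitters' processing notes name STAR 2.7.8a and mm39, and the deposited file's name gives HTSeq as the counter. The sources used here state neither its version, the annotation release nor the strand setting. Totals were 1192668 to 3275089 counts per library, and intervals on counts cover counting error only.

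The main fits used R 4.3.3 and edgeR 4.0.16 (limma 3.58.1), using filterByExpr (minimum count 10, minimum total 15), TMM scaling, a prior count of 2 and the quasi-likelihood F test. Benjamini-Hochberg adjustment ran over all genes tested, and calls were made at an adjusted p under 0.05. The fit of fresh cells used 6 libraries and 11786 genes, that of cultured cells 23 libraries and 12841 genes, and that of culture against fresh 29 libraries and 13523 genes. Each standard error is the size of the log2 fold change divided by the root of F. CPM values use TMM-scaled library sizes over the 29 libraries. CPM per kb divides by exon lengths from GENCODE M21 on GRCm38, an older build than that of the counts, and coordinates of sequences are of GRCm38.p6. The scripts were tested on simulated data. Alternatives were DESeq2 1.42.0, other scalings and filters, replicate blocks, and each library left out.

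All 10 integrin genes are named whatever their values. From each list of other pathway genes, up to 4 called genes with the smallest p are named per comparison, with some of a list's leading genes given at the other age for comparison. The genes most like a member are those with the highest correlation among genes of at least 10 CPM. The members and lists were chosen with earlier results of these data known. Samples were grouped by their titles. Pairing by replicate or library number was not used in the main fits, because the labels give no shared source for a number. Cultured libraries with the same library number did tend to correlate in their deviations (median 0.179, against -0.125 for other numbers of the same cell age). The main fits therefore leave out a possible pairing, and fits with blocks are given at the end. The second YCF+SoftY library carries library number 3.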

Additional observations from a re-analysis of the deposited data

Results flagged for a closer look

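For 3 of the 10 genes, the change in culture differed between ACF and YCF in the test of the difference itself, on the log2 scale. The ACF response minus the YCF response was -1.69 for Itgb3, 0.87 for Itgb5 and -0.62 for Itgav. Each rests on 3 fresh ACF and 3 fresh YCF libraries, in which the summed platelet, myeloid and endothelial markers also differed by age. The part of those cells was not tested. The Itgav call did not survive leaving out some single fresh libraries.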

How the results depend on the processing

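Of 187 pairs of gene and comparison tested, 37 were called. Leaving out a library kept 540 of the refitted calls and lost 16, and gave 27 new calls among refits of pairs that were not called, where 1759 stayed uncalled. Under the other alternatives 301 were kept and 8 lost, and 23 calls were gained. None changed direction.

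The number of members called ran, with a library left out, from 1 to 3 for fresh ACF over fresh YCF, 8 to 9 for cultured over fresh ACF, 10 to 10 for cultured over fresh YCF, 2 to 5 for the difference of these responses, and 4 to 7 for cultured ACF over cultured YCF. It ran from 2 to 3 for matrix age in ACF, 1 to 3 for matrix age in YCF, 1 to 1 for stiffness in YCF, 0 to 1 for StiffY over SoftY in YCF, 1 to 2 for StiffA over SoftY in ACF and 1 to 1 for it in YCF. It was 0 to 0 for the other 8 comparisons.

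With library totals alone, 1 member was called in fresh cells: Itgav was at 0.23 there (adjusted p = 0.121) and at -0.42 in the difference of culture responses (adjusted p = 0.142). That scaling moved the median of all genes by -0.13 in the comparison of fresh cells, by -0.11 in culture of YCF and by 0.19 in the difference. With no filter on low counts, the members called were 4 in fresh cells (Itga8 and Itgb1 with Itgb3 and Itgav), 5 for the difference of culture responses, 3 for stiffness in YCF, 4 for matrix age in ACF and 2 for StiffA over SoftY in ACF. A minimum mean of 10 CPM gave 2 for StiffY over SoftY in YCF. For StiffA over SoftY in YCF, 1 member was called under DESeq2 size factors, library totals alone, no filter, a fit of only the groups compared, and DESeq2's Wald test. A fit of only the groups compared gave 2 for StiffA over SoftY in ACF. An alternative chosen after seeing the data, leaving out the 4 libraries with the fewest counts, gave 5 for the difference of culture responses. The cause of these shifts was not tested.

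The labels name no shared source for a replicate number, so the replicate block is given only here. By title number, deviations of same-numbered cultured libraries correlated at -0.417 to 0.569 (28 of 77 pairs over 0.1), and the block called 1 member for StiffA over SoftY in YCF. By library number they correlated at -0.0559 to 0.569 (median 0.179, 24 of 33 pairs over 0.1), against a median of -0.125 and 9 of 66 pairs for other numbers of the same cell age, and 10 of 12 cultured ACF and 8 of 11 cultured YCF libraries correlated best with their own number. This is a hint of pairing from the data, not from the design. That block called 5 members for matrix age in ACF, adding Itgav (-0.38, adjusted p = 0.00117), Itgb1 (-0.22, 0.0203) and Itgbl1 (0.38, 0.0246). It called 2 for stiffness in YCF, adding Itgav, 2 for StiffY over SoftY in YCF, adding Itga1, and 2 for StiffA over SoftY in ACF, adding Itgav. The blocks moved no other count of members by over 1.5 times. Depth limits Itga8, Itga11, Itgbl1 and Itga4 in fresh cells, where summed counts per group were 6 to 40.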
